A study of Rattus norvegicus with 10 samples.

Results

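The genes described here are the Wnt family ligands, their receptors and co-receptors, their secreted inhibitors and the first steps behind them, measured by RNA-seq in cystic kidneys of the PCK rat. Members were taken by gene symbol, from Wnt, frizzled, R-spondin, secreted frizzled-related (*Sfrp*) and Dickkopf names to *Wif1*, *Lrp5*, *Lrp6*, *Ror1*, *Ror2*, *Ctnnb1*, *Apc*, *Axin2*, the TCF/LEF factors and *Vangl1* and *Vangl2*. This gave 56 gene entries under 55 symbols, since *Dkk1* is listed under 2 identifiers (ENSRNOG00000011692 and ENSRNOG00000048688), of 22293 protein-coding genes and 32545 genes in all. *Axin1* is not analysed here.

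Messenger RNA was sequenced from the kidneys of 5 male and 5 female PCK rats, a strain (PCK/CrljCrl-Pkhd1pck/Crl) used as a model of autosomal recessive polycystic kidney disease. Every rat in both groups carried the *Pkhd1* mutation and none was treated, so the comparison is between the sexes in cystic tissue and has no non-cystic control. The ages were 12 to 14 weeks by the series description, whereas the methods give a younger span, and the tissue was renal cortex from littermates of more than 1 litter, with no key from libraries to litters. Differences are given as female minus male throughout.

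Wnt proteins are secreted lipid-modified signals. In the canonical branch a Wnt binds a frizzled receptor together with *Lrp5* or *Lrp6*, beta-catenin (*Ctnnb1*) escapes a destruction complex built on *Apc* and axin, and beta-catenin then acts with TCF/LEF factors in the nucleus. The planar cell polarity branch uses frizzled receptors with *Vangl1* and *Vangl2*, and frizzled-related proteins, Dickkopfs and *Wif1* act outside the cell as inhibitors. In the kidney, Wnt signals drive nephron and collecting duct formation, and planar polarity has been studied in relation to tubule diameter and cysts.

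The unit is FPKM, fragments per kilobase of gene scaled to sequencing depth, so that levels can be set side by side between genes. The libraries held 13912569 to 20285911 reads on genes, and 1 read on a gene of 1 kb was worth 0.0486 to 0.0710 FPKM. The Y-linked gene *Eif2s3y* gave 34.2 to 46.5 FPKM in the males against 0.0327 to 0.287 FPKM in the females, which fits the labels. Proximal tubule, thick ascending limb and podocyte markers were present in every library, and of the tubule markers the distal convoluted tubule gene *Pvalb* had no read. The library of female 2 stood apart: 26.8% of its reads were mitochondrial against 14.3% to 19.1% in the others, and its summed urothelial markers (*Upk1b*, *Upk3a* and *Krt5*) reached 6.80 FPKM against at most 0.320 FPKM elsewhere. Of the papilla and inner medulla markers, *Slc14a2* (ENSRNOG00000056021) read 2.24 FPKM in female 2, from 92 reads, and at most 0.0665 FPKM elsewhere. *Aqp4* was also highest in female 2, at 5.66 FPKM, whereas *Fxyd2* and the other *Slc14a2* identifier were not. Values without female 2 are given beside several of the members that this library moved.

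Of the 56 entries, 42 had a mean of at least 0.1 FPKM over the 10 libraries and were tested, and 14 fell under that filter. Of these 14, 11 had at most 3 reads in any library, and *Wnt3a*, *Wnt8a* and the second *Dkk1* entry had none, which allows up to 0.0810, 0.126 and 0.144 FPKM at 3 reads in the library where a read weighs most. Means of at least 1 FPKM were reached by 27 entries and means of at least 10 FPKM by 8. *Ctnnb1* alone made up 35.7% of the summed mean FPKM of all entries, *Fzd1* made up 56.5% of the frizzled sum, and *Wnt5a* 32.3% of the ligand sum. Of the 19 ligand entries, 4 reached a mean of 1 FPKM.

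**Figure D1:**
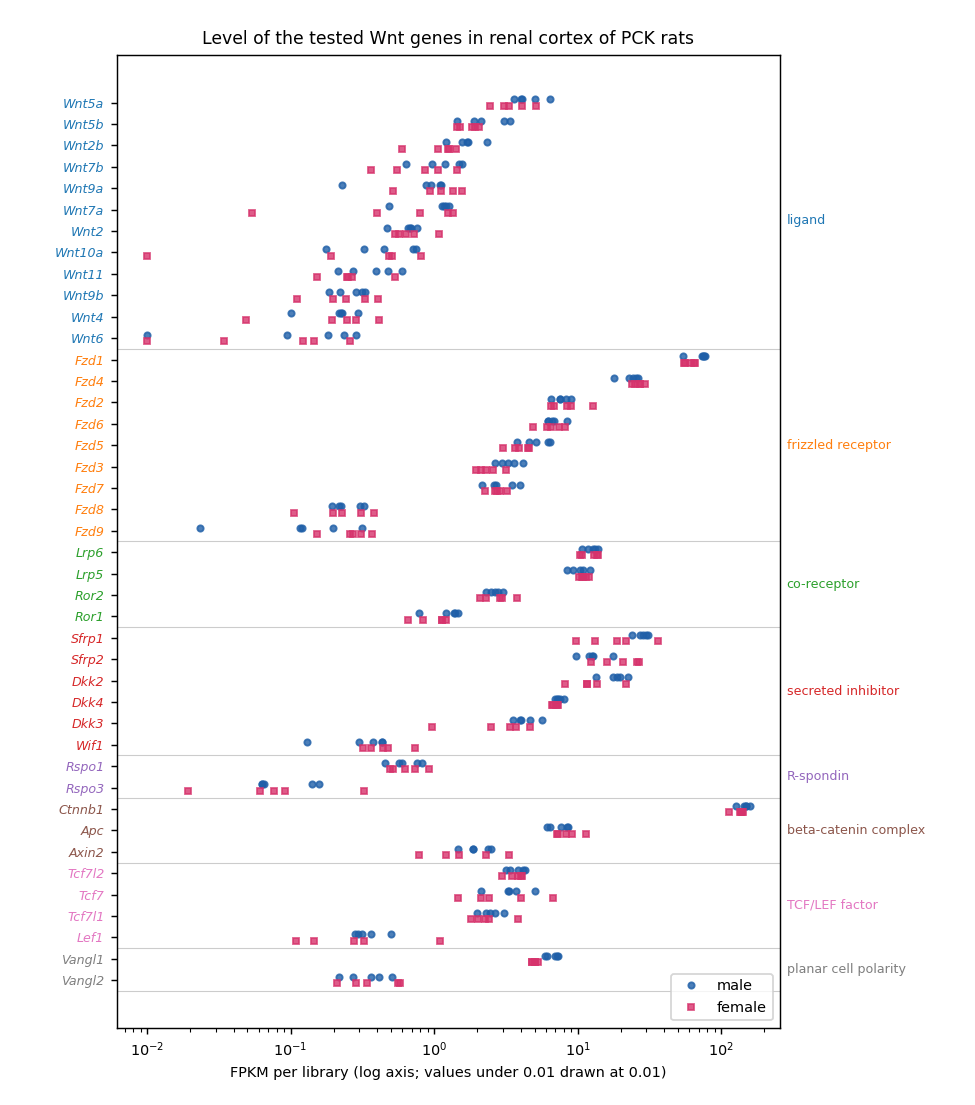
FPKM of the 42 tested genes (log axis), 1 point per library, males as circles and females as squares, grouped by role. *Ctnnb1* and *Fzd1* lie farthest to the right, and 8 of the 12 tested ligands have means below 1 FPKM.

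Between the sexes, 0 of the 42 tested genes passed both thresholds (limma adjusted p of at most 0.05 and at least a 2-fold change), where 1.32% of the 17631 genes tested did, 0.618% higher and 0.698% lower in females. At the adjusted p alone 1 gene passed, *Vangl1*, lower in females (2.38% of the members against 2.40% of all genes, of which 1.26% higher and 1.14% lower). At an unadjusted p under 0.05 there were 7 (16.7% against 15.7%, of which 7.67% higher and 8.07% lower), *Sfrp2* higher in females and *Vangl1*, *Fzd3*, *Wnt2b*, *Fzd5*, *Dkk2* and *Sfrp1* lower. In both directions together these shares are near the background. By direction at the unadjusted p, 14.3% of the members were lower and 2.38% higher. By the sign of the log2 fold change, used for all counts of sign here, 28 of the 42 genes were lower in females (66.7%, against 51.2% of all genes), and the median log2 fold change was -0.09 against -0.01 for all genes. Without female 2, 41 members passed the filter, 32 of them lower in females (78.0%, against 49.7% of all genes). The median log2 fold change over the 41 was then -0.16, against 0.002 for all genes. Past the adjusted p there were then 2, *Vangl1* and *Sfrp1* (4.88% against 3.13% of all genes). Female 2 was the highest female for 18 of the 42 genes, so leaving it out lowers the female means of those genes. Female 4 was the lowest female for 16, and the sign count without it is not given here. In the main fit with all libraries, the largest fold change among the 42 tested members was 0.72 on the log2 scale in absolute size (*Wnt7a*, which reached -1.002 without female 2). For 27 of the 42 genes the 95% interval of the fold change lay within a 2-fold change either way. Log2 fold changes are on the log2(FPKM + 0.1) scale, which understates the change of low genes.

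**Figure D2:**
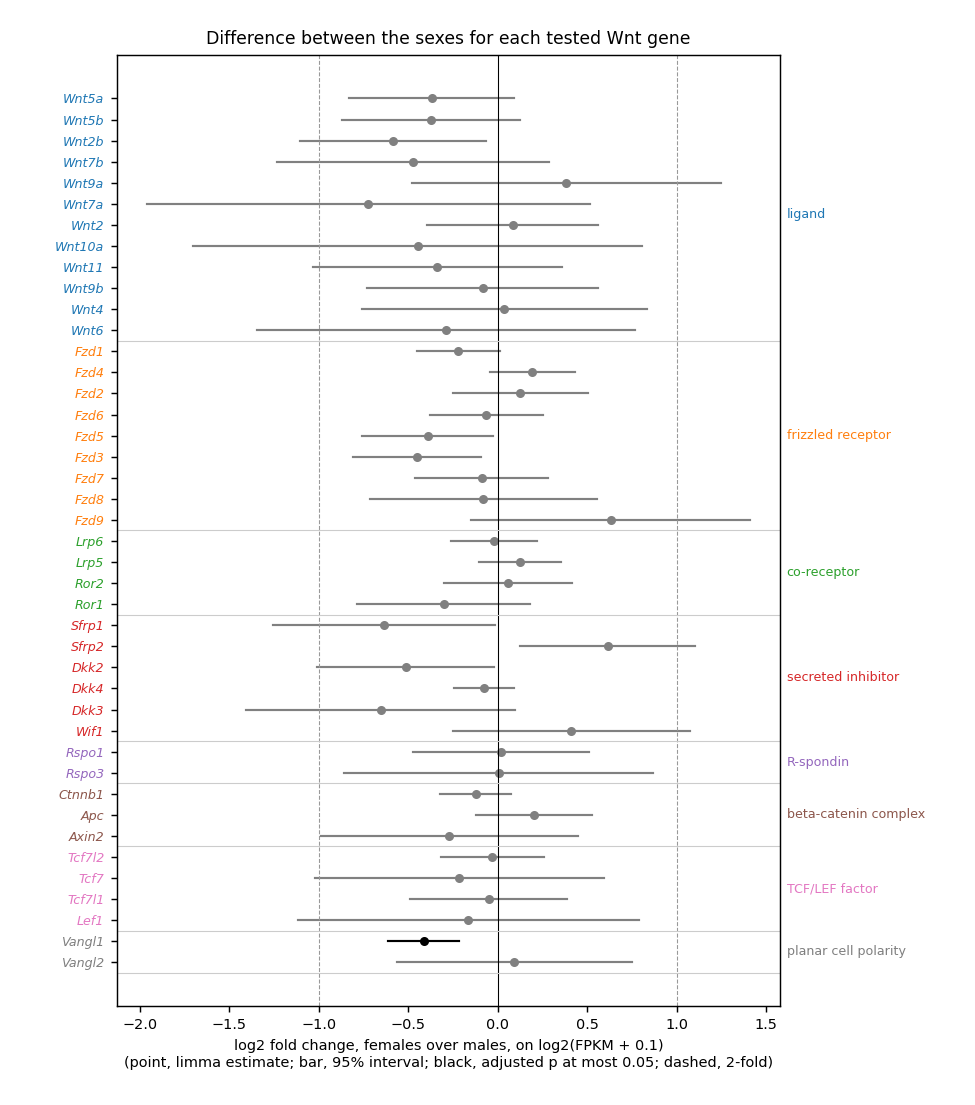
Log2 fold change, female minus male, of each tested gene (point) with its 95% interval (bar), grouped by role, with dashed lines at a 2-fold change. *Vangl1* is the gene whose adjusted p is at most 0.05, and intervals widen toward the genes with few reads.

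*Vangl1*, a membrane protein of the planar polarity core on chromosome 2 (Rnor_6.0, 204575466 to 204625743, minus strand), was 1.34-fold higher in males. Its level was 6.14, 6.94, 7.33, 7.18 and 5.90 FPKM in males 1 to 5, and 5.05, 5.04, 4.80, 4.80 and 5.25 FPKM in females 1 to 5. The lowest male lay above the highest female, and *Vangl1* was the only tested member whose ranges did not overlap (5.10% of all genes tested had ranges apart, 2.50% higher and 2.60% lower in females). The means were 6.70 ± 0.639 and 4.99 ± 0.192 FPKM (SD, n = 5 each), a log2 fold change of -0.41 (SE 0.09, 95% interval -0.61 to -0.22, limma adjusted p = 0.0374). The exact two-sided permutation test of the means gave p = 0.00794, the smallest that 5 against 5 allow. The adjusted p passed 0.05 in 2 of the 10 fits that left out 1 library (without male 5, 0.0339, and without female 2, 0.0438). It rose to 0.112 without male 3, to 0.101 without male 2, to 0.0921 without male 4 and to 0.0537 without male 1. It was 0.0669 without female 1, 0.0835 without female 3, 0.0820 without female 4 and 0.0733 without female 5. It was also 0.0657 with quantile normalization and 0.157 with a replicate block. *Vangl2*, its paralogue, stood at 0.355 ± 0.117 FPKM in males against 0.394 ± 0.165 FPKM in females (log2 fold change 0.09, adjusted p = 0.923), with overlapping ranges.

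**Figure D3:**
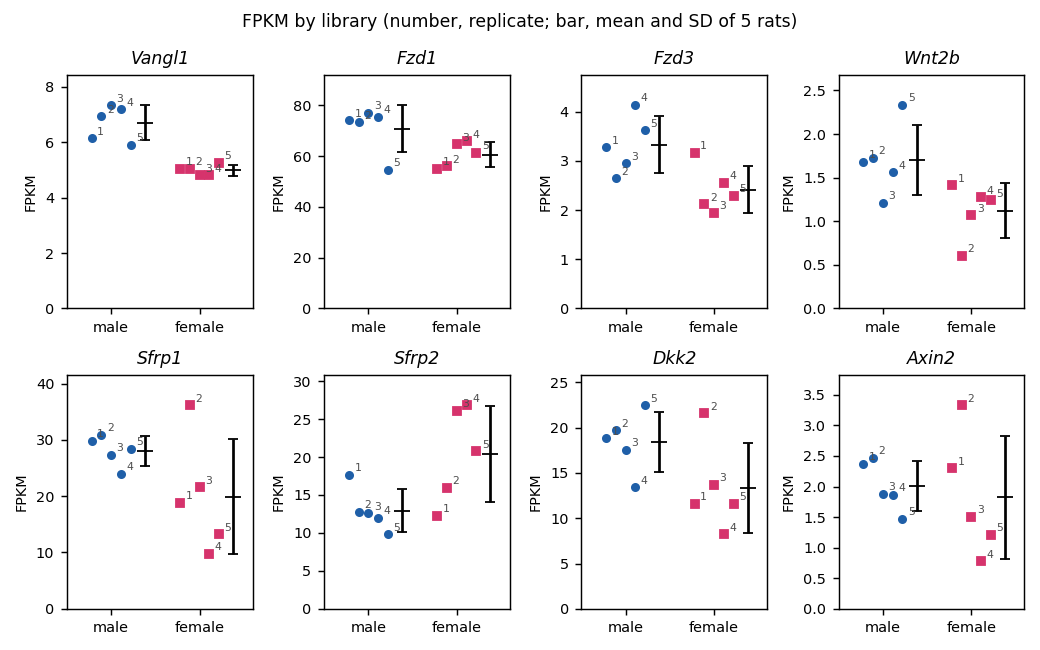
FPKM of selected members in each library, males and females side by side, with the mean and SD as bar and whisker (linear axes from 0). The *Vangl1* points of the sexes do not overlap, and the *Sfrp1* points of the females spread from 9.77 to 36.1 FPKM.

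Among the ligands, 12 of 19 entries were tested, 3 higher and 9 lower in sign in females, with a median log2 fold change of -0.35 and none called. *Wnt5a*, the main ligand of the non-canonical branch (chromosome 16, 4469468 to 4489860), was the most abundant. It read 3.59, 4.04, 4.10, 6.37 and 5.04 FPKM in males 1 to 5 and 5.10, 3.31, 2.43, 3.07 and 4.08 FPKM in females 1 to 5. The ranges overlapped widely, with means of 4.63 ± 1.11 and 3.60 ± 1.02 FPKM (log2 fold change -0.37, 95% interval -0.83 to 0.09, adjusted p = 0.437). The related *Wnt5b* was at 2.39 ± 0.824 and 1.75 ± 0.265 FPKM (log2 fold change -0.37, adjusted p = 0.470). With 1 library left out its log2 fold change ran from -0.53 to -0.23, and the limma adjusted p from 0.250 to 0.725. Males 1, 3 and 5 lay above every female for *Wnt5b*, and male 4, at 1.43 FPKM, below them all.

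*Wnt2b*, which can signal through beta-catenin, had the lowest unadjusted p of the ligands. Its values were 1.68, 1.73, 1.21, 1.56 and 2.33 FPKM in males 1 to 5 and 1.41, 0.6004, 1.07, 1.27 and 1.24 FPKM in females 1 to 5. Only male 3 fell within the female range, and the log2 fold change was -0.58 (95% interval -1.10 to -0.06, adjusted p = 0.255, exact permutation p = 0.0317). Without female 2 the log2 fold change of *Wnt2b* was -0.40 (adjusted p = 0.270, exact permutation p = 0.0635). *Wnt2b* overlaps *St7l* on the other strand (4.44 and 4.77 FPKM in males and females), so its reads are uncertain if strand was not used in counting. The other tested ligands had means from 0.112 to 1.17 FPKM. *Wnt9a* was at 0.856 and 1.10 FPKM and *Wnt7b*, a collecting duct ligand, at 1.17 and 0.855 FPKM in males and females. *Wnt4*, needed for nephron formation, was at 0.213 and 0.238 FPKM (0.194 FPKM in females without female 2), *Wnt9b* at 0.267 and 0.258 FPKM and *Wnt11* at 0.390 and 0.290 FPKM. *Wnt7a* had the largest ligand fold change (-0.72, SE 0.56, adjusted p = 0.591), with 1.05 and 0.769 FPKM and only 3 reads in female 4. Without female 2, its highest female, the log2 fold change of *Wnt7a* was -1.002 (adjusted p = 0.364), and that of *Wnt10a* was -0.75 (adjusted p = 0.510). Several of the ligand genes lie side by side in the genome: *Wnt6* and *Wnt10a* on chromosome 9, 6415 bases apart, *Wnt1* and *Wnt10b* on chromosome 7, 10731 bases apart, and *Wnt3a* and *Wnt9a* and *Wnt3* and *Wnt9b* on chromosome 10, 21108 and 22717 bases apart. In the last 2 pairs *Wnt9a* and *Wnt9b* were tested, whereas *Wnt3a* had no read and *Wnt3* fell under the filter.

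All 9 frizzled receptors were tested, 3 higher and 6 lower in sign, with none called. *Fzd1* (chromosome 4, 26470864 to 26475262) read 74.1, 73.3, 77.0, 75.5 and 54.5 FPKM in males 1 to 5 and 54.9, 56.0, 64.7, 65.9 and 61.4 FPKM in females 1 to 5. Males 1 to 4 lay above every female and male 5 below them all. The means were 70.9 ± 9.26 and 60.6 ± 4.99 FPKM (log2 fold change -0.22, 95% interval -0.45 to 0.01, adjusted p = 0.352, exact permutation p = 0.0714). Without male 5 the exact permutation p for *Fzd1* was 0.00794, and its adjusted p by limma 0.0875, whereas without each other library in turn the exact p was 0.0714 to 0.143 and the adjusted p up to 0.554. *Fzd5* was at 6.17, 4.60, 6.45, 5.12 and 3.78 FPKM in males 1 to 5 and 3.02, 3.66, 4.60, 4.49 and 3.88 FPKM in females 1 to 5. Males 1 to 4 again lay above every female, and male 5 among the females. Its log2 fold change was -0.39 (adjusted p = 0.285, exact permutation p = 0.0556). Without male 5 the exact permutation p of *Fzd5* was 0.00794 and the adjusted p 0.165, and without each other library in turn the exact p was 0.0556 to 0.127. *Fzd4*, the receptor for norrin as well as Wnts, ran the other way in sign, at 23.3 ± 3.27 FPKM in males against 26.5 ± 2.08 FPKM in females (log2 fold change 0.19, adjusted p = 0.431, and 0.10 without male 5), with overlapping ranges.

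*Fzd3*, a receptor of the planar polarity branch, had the second smallest p of all members. It read 3.28, 2.64, 2.95, 4.14 and 3.62 FPKM in males 1 to 5 and 3.17, 2.12, 1.94, 2.55 and 2.29 FPKM in females 1 to 5. Female 1 lay among the males and the other females below them. The log2 fold change was -0.45 (SE 0.16, 95% interval -0.81 to -0.09, adjusted p = 0.200, exact permutation p = 0.0317, and 0.0556 without female 2). *Fzd2*, *Fzd6* and *Fzd7* had means from 2.75 to 8.71 FPKM in either sex, the highest being *Fzd2* in females (7.69 FPKM without female 2), and *Fzd8* was at 0.253 and 0.244 FPKM. *Fzd9* was low in every library, at 0.0233 to 0.315 FPKM in the males and, in the females, 0.154 to 0.366 FPKM (log2 fold change 0.63, SE 0.35, adjusted p = 0.434). The log2 fold change of *Fzd9* ran from 0.14 to 1.07 over the alternative settings, and from 0.40 to 0.84 with 1 library left out. The co-receptors moved little. *Lrp6* was at 12.5 ± 1.21 and 12.3 ± 1.66 FPKM (log2 fold change -0.02, 95% interval -0.26 to 0.22) and *Lrp5* at 10.2 ± 1.44 and 11.1 ± 0.702 FPKM (log2 fold change 0.13, 95% interval -0.10 to 0.36). Neither interval reached a 2-fold change. The tyrosine kinase receptors *Ror2* and *Ror1*, which bind *Wnt5a* protein, were at 2.65 and 2.81 FPKM and at 1.24 and 0.992 FPKM in males and females.

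Among the secreted inhibitors, *Sfrp1*, *Sfrp2* and *Dkk2* made up 83.2% of the summed mean FPKM of this role, and 6 of its 11 entries were tested, 2 higher and 4 lower in sign. *Sfrp1* (chromosome 16, 73372007 to 73410777) read 29.8, 30.9, 27.3, 24.0 and 28.4 FPKM in males 1 to 5 and 18.9, 36.1, 21.5, 9.77 and 13.2 FPKM in females 1 to 5. Female 2 was above every male and the other females below every male. With all libraries the means were 28.1 ± 2.66 and 19.9 ± 10.2 FPKM (log2 fold change -0.63, 95% interval -1.25 to -0.01, adjusted p = 0.308, exact permutation p = 0.127). Without female 2 the log2 fold change of *Sfrp1* was -0.88, with an adjusted p by limma of 0.0492, and without female 4 it was -0.41 with 0.518.

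*Sfrp2*, a frizzled-related inhibitor of the same family (chromosome 2, 182723854 to 182731764), ran the other way in sign. Its level was 17.6, 12.8, 12.6, 12.0 and 9.80 FPKM in males 1 to 5 and 12.3, 15.9, 26.1, 26.8 and 20.8 FPKM in females 1 to 5. Females 3 to 5 lay above every male and females 1 and 2 within the male range. The means were 13.0 ± 2.86 and 20.4 ± 6.30 FPKM (log2 fold change 0.62, SE 0.22, 95% interval 0.13 to 1.10, adjusted p = 0.202, exact permutation p = 0.0635). The adjusted p of *Sfrp2* was 0.0729 without female 1 and 0.374 without female 4. *Dkk2*, an inhibitor that binds *Lrp5* and *Lrp6* proteins, read 18.8, 19.7, 17.5, 13.4 and 22.5 FPKM in males 1 to 5 and 11.6, 21.6, 13.7, 8.21 and 11.6 FPKM in females 1 to 5. Female 2 sat among the upper males, female 3 just above the lowest male and the other females below every male (log2 fold change -0.51, 95% interval -1.01 to -0.02, adjusted p = 0.299, exact permutation p = 0.119). Without female 2 the log2 fold change of *Dkk2* was -0.71 (adjusted p = 0.0590, exact permutation p = 0.0238), and without female 4 it was -0.36 (adjusted p = 0.514, exact permutation p = 0.214). *Dkk3* was at 4.36 ± 0.7995 and 3.03 ± 1.39 FPKM (log2 fold change -0.65, adjusted p = 0.394), with its lowest value, 0.970 FPKM, in female 4, and a log2 fold change of -0.84 without female 2 (adjusted p = 0.200). *Dkk4* was the steadiest member, at 7.38 ± 0.405 and 6.98 ± 0.294 FPKM (log2 fold change -0.08, SE 0.08, the smallest among the tested members). *Wif1*, which binds Wnts directly, ranged from 0.130 to 0.433 FPKM among males and from 0.319 to 0.740 FPKM among females (adjusted p = 0.562). *Sfrp4* fell under the filter, with 5, 4, 8, 10 and 7 reads in males 1 to 5 and 1, 4, 3, 2 and 0 reads in females 1 to 5, and it overlaps *Nme8* on the other strand.

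Fibroblast genes moved in the same libraries as several of these inhibitors. The summed level of 6 fibroblast and myofibroblast markers (*Pdgfra*, *Pdgfrb*, *Col1a1*, *Col3a1*, *Dcn* and *Lum*) was 250.3 to 337 FPKM in males against 84.3 to 245 FPKM in females, with no overlap, female 2 the highest female and female 4 the lowest. Of the 6, 1 passed the adjusted p (*Col3a1*, log2 fold change -1.14, adjusted p = 0.0477) and the median log2 fold change was -0.69. Smooth muscle markers summed to 211 FPKM in female 2 and 52.9 FPKM in female 4, and lymphocyte markers to 17.7 and 2.26 FPKM. Lymphocyte sums were 7.10 to 18.0 FPKM in males, and macrophage sums 44.6 to 75.4 FPKM in males against 21.1 to 57.2 FPKM in females (median log2 fold change -0.51, none of 4 markers past the adjusted p). Intercalated cell markers, all 4 detected, ran higher in females, at 176 to 276 FPKM against 104 to 171 FPKM in males. Their median log2 fold change was 0.64, and none of the 4 passed the adjusted p. The part of these cell types in the values of *Sfrp1*, *Dkk2*, *Dkk3*, *Fzd3*, *Wnt2b* and *Vangl1* was not tested. In whole tissue, fewer cells of a type and less RNA per cell cannot be told apart.

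**Figure D4:**
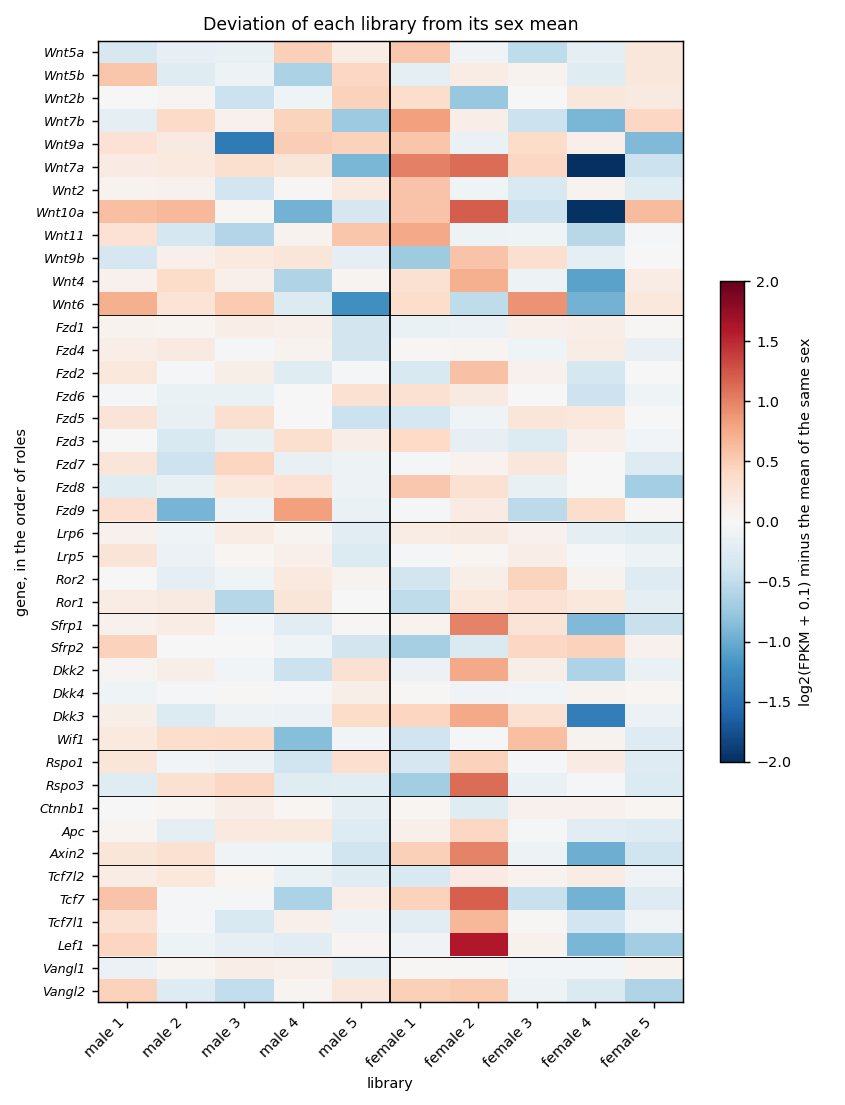
Deviation of each library (columns) from the mean of its own sex for each tested gene (rows), as colour on the log2(FPKM + 0.1) scale, red above and blue below. Female 2 was the highest of its sex for 18 of the 42 genes and female 4 the lowest for 16.

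Over the 42 tested members, female 2 was the highest female for 18 and female 4 the lowest for 16, whereas male 5 was the lowest male for 14. Among the TCF/LEF factors, female 2 was the highest female for all 4, and female 4 the lowest for *Tcf7*, *Tcf7l1* and *Lef1*. *Tcf7*, a T cell factor and Wnt effector, read 5.06, 3.26, 3.31, 2.13 and 3.70 FPKM in males 1 to 5 and 3.999, 6.73, 2.10, 1.46 and 2.39 FPKM in females 1 to 5. *Lef1* spanned 0.283 to 0.503 FPKM among males and 0.110 to 0.322 FPKM among 4 females, with 1.10 FPKM in female 2, the female with the highest lymphocyte marker sum. Without female 2 the log2 fold changes were -0.51 for *Tcf7* (adjusted p = 0.374) and -0.56 for *Lef1* (adjusted p = 0.335). *Tcf7l2*, the most abundant factor of this class in mean, was level between the sexes at 3.76 and 3.69 FPKM in males and females, and *Tcf7l1* stood at 2.50 and 2.47 FPKM (2.12 FPKM in females, log2 fold change -0.22, without female 2). All 4 factors were tested and had negative log2 fold changes, with a median of -0.11 and none called, although the mean FPKM of *Lef1* was higher in females (0.351 and 0.391 FPKM) through female 2.

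*Ctnnb1*, which encodes beta-catenin (chromosome 8, 129617812 to 129627372), was the most abundant member. Its level was 144, 148, 158, 149 and 126 FPKM in males 1 to 5 and 136, 112, 141, 141 and 136 FPKM in females 1 to 5. The ranges overlapped, with means of 145 ± 11.7 and 133 ± 11.8 FPKM (log2 fold change -0.12, 95% interval -0.32 to 0.08, adjusted p = 0.569, exact permutation p = 0.167), and the log2 fold change was -0.063 without female 2 (adjusted p = 0.699). Beta-catenin is regulated mainly through its stability, which RNA does not measure. *Apc*, the scaffold of its destruction complex, spanned 6.15 to 8.49 FPKM among males and 7.13 to 11.3 FPKM among females (log2 fold change 0.20, adjusted p = 0.555, and 0.10 without female 2).

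*Axin2* is both a scaffold of the destruction complex and a widely used transcriptional readout of canonical signalling (chromosome 10, 97212432 to 97239642). It read 2.37, 2.47, 1.88, 1.86 and 1.47 FPKM in males 1 to 5 and 2.30, 3.33, 1.5005, 0.779 and 1.21 FPKM in females 1 to 5. The female values spanned the male range on either side, with female 2 the highest and female 4 the lowest (log2 fold change -0.27, 95% interval -0.99 to 0.45, adjusted p = 0.753). Without female 2 the log2 fold change of *Axin2* was -0.52 (adjusted p = 0.333). Of the R-spondins, which strengthen Wnt signals at the receptor, *Rspo1* was level at 0.641 ± 0.148 and 0.655 ± 0.174 FPKM. *Rspo3* was at 0.0979 and 0.115 FPKM in males and females, and female 2 alone gave 0.323 FPKM, from 14 reads, without which the female mean was 0.0624 FPKM. *Rspo2* and *Rspo4* fell under the filter.

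The promoters of *Axin2*, *Dkk1* and *Sfrp2* are shown for an intracellular readout and a pair of secreted inhibitors, with the letters CTTTG, the core that TCF/LEF factors bind, marked. Others of the members held as many matches as *Axin2* or more, and *Sfrp2*, like 24 of the 39 member promoters, held none. They are the 250 bases before the annotated start from RefSeq, in build GRCr8 and not that of the expression table, 5′ to 3′ on the strand of the gene. Capitals mark CTTTG on either strand, extended where it reads as CTTTGAA, or with another ending as CTTTGAT, also as CTTTGTA, and last as CTTTGTT, each of which contains the shorter motif. *Axin2* lies at chr10:94398535-94398784 (plus strand), *Dkk1* at chr1:237798651-237798900 (minus strand) and *Sfrp2* at chr2:171387286-171387535 (plus strand).
Axin2: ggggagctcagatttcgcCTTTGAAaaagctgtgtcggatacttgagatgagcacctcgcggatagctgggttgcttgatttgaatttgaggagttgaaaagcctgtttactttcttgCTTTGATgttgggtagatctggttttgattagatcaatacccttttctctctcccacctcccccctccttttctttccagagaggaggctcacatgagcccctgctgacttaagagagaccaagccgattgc
Dkk1: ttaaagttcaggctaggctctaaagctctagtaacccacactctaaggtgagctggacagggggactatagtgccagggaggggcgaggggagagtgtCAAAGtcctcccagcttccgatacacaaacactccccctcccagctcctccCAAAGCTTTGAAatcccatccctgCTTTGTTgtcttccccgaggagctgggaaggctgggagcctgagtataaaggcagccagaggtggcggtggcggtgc
Sfrp2: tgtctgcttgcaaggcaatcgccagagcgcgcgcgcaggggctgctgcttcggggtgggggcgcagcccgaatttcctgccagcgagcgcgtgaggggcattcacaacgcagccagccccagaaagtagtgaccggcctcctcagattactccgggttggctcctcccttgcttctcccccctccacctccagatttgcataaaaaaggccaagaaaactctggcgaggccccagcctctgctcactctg
*Axin2* held 2 matches, 232 and 132 bases before the start, and both were of the 7-letter form. *Dkk1* held 4 matches, 2 of them of the 7-letter form, though its RNA was near absent in these kidneys, with 2 reads in male 2 and none elsewhere. Of the 55 symbols 39 had a promoter entry, and 15 of the 39 (38.5%) held CTTTG, against 48.2% of all 33469 promoter entries of the same length. The 7-letter form was in 5 of the 39 (12.8%), against 14.9% of all. The member promoters were richer in G and C, with a median of 64.8% against 51.2%. A match of letters is a description and not a binding site.

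Other genes of the pathway, from a list of 75 symbols that are not members, were read in the same fit. Of these, 70 were matched and 62 tested, 21 higher and 41 lower in sign in females (51.2% of all genes were lower), with a median log2 fold change of -0.06 against -0.01. Past both thresholds there was 1 gene (1.61% of 62, near the 1.32% of all genes). That gene was *Tle2*, a Groucho-family co-repressor that TCF/LEF factors recruit (chromosome 7, 10988532 to 11003785). It read 5.79, 4.504, 4.56, 5.14 and 4.48 FPKM in males 1 to 5 and 10.3, 7.57, 9.77, 10.3 and 13.5 FPKM in females 1 to 5. The ranges lay apart, with means of 4.89 ± 0.567 and 10.3 ± 2.10 FPKM (log2 fold change 1.04, SE 0.14, adjusted p = 0.00281, exact permutation p = 0.00794). The adjusted p for *Tle2* stayed at most 0.0114 in all 10 fits without 1 library, and the fold change fell to 0.94 on the log2 scale without female 5, under the 2-fold threshold.

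**Figure D5:**
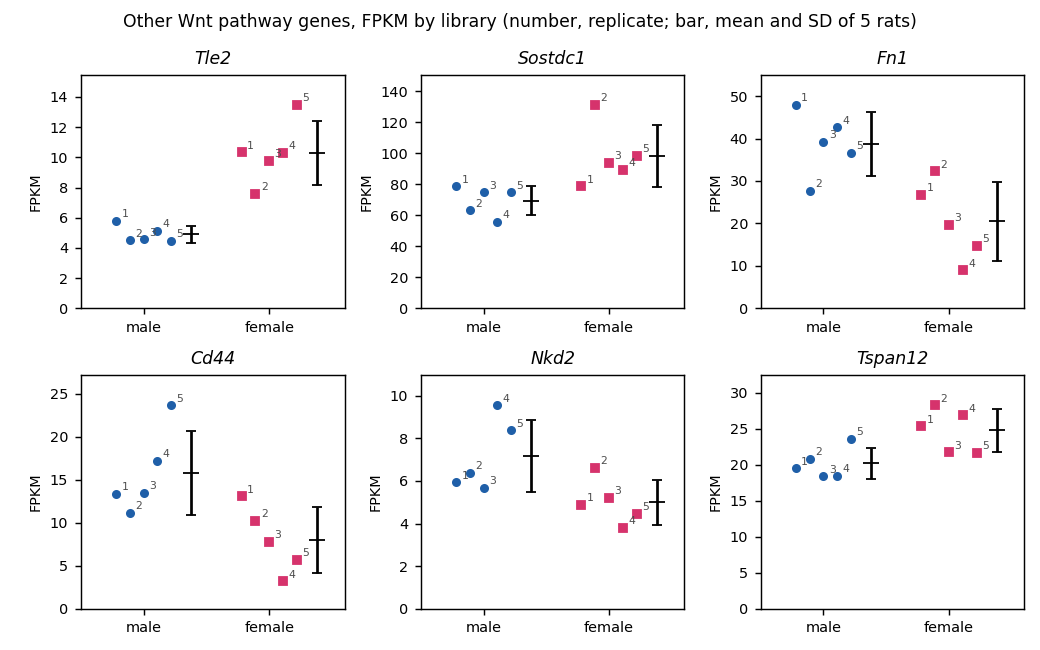
FPKM of the named pathway genes outside the member list in each library, with mean and SD (linear axes from 0). *Tle2* points of the sexes do not overlap, nor do those of *Sostdc1*.

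*Sostdc1*, a secreted antagonist of BMP and Wnt signals that is abundant in the distal nephron, averaged 69.5 ± 9.52 FPKM in males against 98.2 ± 19.7 FPKM in females, with ranges apart (log2 fold change 0.49, adjusted p = 0.111, exact permutation p = 0.00794). Distal convoluted tubule marker sums overlapped between the sexes, at 83.3 to 148 FPKM in males against 126 to 187 FPKM in females (median log2 fold change 0.42). Those of principal cells also overlapped, at 157 to 236 against 186 to 266 FPKM (median 0.44, 1 of 5 markers past the adjusted p). Intercalated cell sums lay apart, at 104 to 171 FPKM in males against 176 to 276 FPKM in females. The part of these 3 cell types in the value of *Sostdc1* was not tested. *Tspan12*, a partner of *Fzd4* in norrin signalling, was at 20.2 ± 2.17 and 24.8 ± 2.999 FPKM (log2 fold change 0.29, adjusted p = 0.194). Both were higher in females in mean, and neither passed the adjusted p. Genes often used as readouts of the canonical branch were lower in sign in females for 8 of the 9 tested (51.2% of all genes were), with a median log2 fold change of -0.62 against -0.01 for all genes and none called. Among the 8 is *Mmp7*, a matrix protease, whose mean was higher in females (1.38 and 2.42 FPKM) with 8.62 FPKM in female 2. *Fn1*, which encodes fibronectin, was at 38.8 ± 7.53 and 20.503 ± 9.27 FPKM (log2 fold change -1.03, adjusted p = 0.118, and -1.22 with 0.0468 without female 2). Without female 4 the log2 fold change of *Fn1* was -0.77 with an adjusted p of 0.157, and without female 5 the adjusted p was 0.251. *Cd44*, a hyaluronan receptor, was at 15.8 ± 4.899 and 7.98 ± 3.85 FPKM (log2 fold change -1.08, adjusted p = 0.143). Fibroblasts and leukocytes also express both genes, and the marker sums of those cells differed between libraries as given above. Their part in these values was not tested. *Nkd2*, a dishevelled-binding inhibitor, was at 7.18 ± 1.70 and 4.99 ± 1.05 FPKM (log2 fold change -0.51, adjusted p = 0.193).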

How the data were processed

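RNA of 10 PCK kidneys (5 male, 5 female) was sequenced as poly-A libraries. Per the labels' processing notes the authors used fastp, HISAT2 2.0.5, StringTie 1.3.3b and featureCounts 1.5.0-p3, and deposited FPKM values per gene on Ensembl Rnor_6.0 identifiers. The strand setting of counting and of each library is not given in the sources used here. FPKM times gene length gave whole reads for 100% of values (tolerance 0.1). From the deposited FPKM, log2(FPKM + 0.1) was taken for the 17631 genes averaging 0.1 FPKM or more and fitted with limma 3.58.1 (trend, R 4.3.3), with Benjamini-Hochberg adjustment over all of them. Thresholds were an adjusted p of 0.05 and a log2 fold change of 1. Single genes were also compared by exact two-sided permutation tests of mean FPKM (scipy 1.17.1). Intervals are at 95%. Named genes were members with an adjusted p of at most 0.05 or ranges apart, the 2 highest per role and the 5 smallest p per direction, and, from the pathway list, adjusted p of at most 0.05 and the 3 smallest p per direction, and other members are given to account for each role. Members, gene lists and rules were chosen with earlier results of these data known. Samples are separate rats by their labels, though littermates may be less independent than the tests assume. Replicate numbers did not pair the sexes. Alternatives covered pseudocount, filter, scaling, moderation, voom on recovered reads, a replicate block and leaving out each library. Counts at an unadjusted p, alternatives for pathway genes, and the values of all members without female 2 were added after seeing the data.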

Additional observations from a re-analysis of the deposited data

Results flagged for a closer look

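Of 96 groups of 5 libraries examined, for the 42 tested members and 6 named pathway genes in each sex, 7 had a library far from the other 4 of its sex, where chance flags about 1 in 20. Male 5 gave 3 of these, the lowest *Fzd1* (54.5 FPKM, next 73.3), the lowest *Wnt7a* (0.487 FPKM, next 1.13) and the highest *Fzd6* (8.47 FPKM, next 6.78). Female 2 gave another 3, the lowest *Ctnnb1* (112 FPKM, next 136), the highest *Lef1* (1.10 FPKM from 40 reads, next 0.322) and the highest *Rspo3* (0.323 FPKM from 14 reads, next 0.0919). Male 3 gave the lowest *Wnt9a* (0.228 FPKM from 2 reads, next 0.884).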

How the results depend on the processing

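The count of members past both thresholds was 0 in every setting that kept the fold threshold, and 1 (*Vangl1*, lower in females) at the adjusted p alone. That 1 became 0 with quantile normalization (adjusted p = 0.0657) and 0 with a replicate block (adjusted p = 0.157), and ranged from 0 to 2 with 1 library left out. Members at an unadjusted p under 0.05 ranged from 1 to 2 higher and from 2 to 5 lower with 1 library left out. Of the pathway list, genes called higher went from 1 to 0 at a pseudocount of 1 and ranged from 0 to 1 with 1 library left out, and those called lower ranged from 0 to 1. At the adjusted p alone they ranged from 1 to 2 higher and from 0 to 1 lower. Over all genes, 109 higher and 123 lower became 65 and 72 at a pseudocount of 1, and 223 and 201 at the adjusted p alone.

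Signs turned for members near 0. With 1 library left out the log2 fold change ranged from -0.070 to 0.040 for *Lrp6*, -0.093 to 0.11 for *Rspo1*, -0.057 to 0.18 for *Rspo3*, -0.090 to 0.045 for *Tcf7l2*, -0.51 to 0.022 for *Tcf7* and -0.039 to 0.24 for *Vangl2*. The difference in mean FPKM ranged from -0.544 to 0.368 for *Lrp6*, -0.0514 to 0.0590 for *Rspo1*, -0.0355 to 0.0405 for *Rspo3*, -0.233 to 0.104 for *Tcf7l2*, -1.01 to 0.313 for *Tcf7* and -0.00690 to 0.0849 for *Vangl2*. *Rspo3* was -0.14 at a pseudocount of 0.01 and -0.16 with voom, and *Tcf7l2* was 0.051 with quantile normalization. Without female 2, *Wnt4* went from 0.04 to -0.14 and *Fzd2* from 0.13 to -0.021. The causes were not tested.

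The replicate block is only a check, since same-numbered males and females deviated together with correlations from -0.16 to 0.16, and 1 of 5 matched its own number best. Standard errors reached 0.57 on the log2 scale, for *Wnt10a* with 0 to 34 reads per library, whereas *Rspo1* with 14 to 22 reads had 0.22. The part of depth in these errors was not tested.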

Other observations

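The pair of abundant frizzled-related inhibitors kept different proportions in different libraries. The ratio of *Sfrp2* to *Sfrp1* FPKM, chosen after their values were seen, was 0.590, 0.412, 0.460, 0.499 and 0.345 in males 1 to 5 and 0.652, 0.441, 1.21, 2.74 and 1.57 in females 1 to 5. Females 3 to 5 had more *Sfrp2* than *Sfrp1*, and the other 7 libraries less.

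*Sp5*, a direct target of canonical signalling that fell under the filter and was singled out after its values were seen, had 6, 6, 2, 3 and 1 reads in males 1 to 5 and 1, 0, 0, 0 and 0 reads in females 1 to 5. The acyltransferase *Porcn*, which modifies Wnts for secretion, was at 5.36 and 5.79 FPKM in males and females, and the Wnt carrier *Wls* at 63.8 and 67.9 FPKM. Both stood far above most of the ligands they serve.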
